A study of Mus musculus with 14 samples.

Results

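The genes described here encode the glycosyltransferases and sulfotransferases that finish the sugar chains of glycoproteins, proteoglycans and glycolipids. They were chosen by name: every protein-coding gene of the count table whose mouse symbol starts with St3gal, St6gal, St8sia, Fut, Galnt, B3gnt, B4galt, Chst, Hs3st, Hs6st or Ndst is a member. This gave 86 of the 17038 protein-coding genes in the table. There were 20 sialyltransferases, 7 fucosyltransferases, 18 polypeptide GalNAc-transferases, 16 B3gnt and B4galt genes, 11 Chst sulfotransferases and 14 genes of heparan sulfate modification (Hs3st, Hs6st and Ndst). No measured value enters this rule, but the family was proposed with earlier results of the same libraries known, so the differences below are a description of the members and nothing is read from their share among all genes. A further 6 protein-coding genes with these prefixes, among them Fut7, Chst4 and Chst9, were not analysed here.

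RNA was measured in sorted epithelial cells from the dorsal skin of wild-type (WT) mouse embryos of the C57BL/6JOlaHsd strain, taken at E14.5, when placodes, the epithelial buds of the first hair follicles, stand among interfollicular epithelium (IFE). The skin epithelium was freed with Dispase II, pooled from 3 to 4 littermates, dissociated with TrypLE and sorted live by an antibody to the adhesion molecule MAdCAM-1 into a positive, placode-enriched fraction and a negative fraction, the IFE. Each title code gave a pair of libraries, with 7 pairs and 14 libraries in all. Both fractions carry the same genotype and strain and no treatment, each library is a pool of embryos, and the sort marker is itself a placode gene, so the fractions are enriched populations and not pure cell types.

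Sugar chains are built in the endoplasmic reticulum and Golgi, where each enzyme adds a residue to the chain left by the enzyme before it. GALNT enzymes start mucin-type chains on serine and threonine, B4GALT and B3GNT enzymes extend N-glycans, O-glycans and glycolipids with galactose and N-acetylglucosamine, and sialyl- and fucosyltransferases cap the ends. NDST, HS6ST and HS3ST enzymes place sulfate along heparan sulfate, the proteoglycan chain that binds FGF, WNT, BMP and Hedgehog ligands, while most CHST enzymes sulfate chondroitin, dermatan or keratan chains.

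Library totals lay between 23.8 and 49.5 mega counts. The labels call the cells epithelial: the 5 epithelial markers Krt5, Krt14, Epcam, Cdh1 and Trp63 summed to 4633 to 5782 CPM in placode-enriched and 5161 to 6406 CPM in IFE libraries, given as CPM, counts per mega count of the scaled library. The sort showed in Madcam1 itself, at 47.9 ± 12.1 CPM in the placode-enriched against 0.561 ± 0.367 CPM in the IFE libraries (SD, n = 7 each). Markers of other cells differed between the fractions. The 8 suprabasal epidermis markers, all lower in the placode-enriched fraction, summed to 207 to 463 CPM in placode-enriched and 2786 to 4375 CPM in IFE libraries, and the 9 melanoblast markers, 8 of 8 tested lower, to 8.31 to 14.6 CPM in placode-enriched and 124 to 222 CPM in IFE libraries. In the other direction, the 8 dermal fibroblast markers summed to 1103 to 1895 CPM in placode-enriched and 918 to 1255 CPM in IFE libraries, with 3 of 7 tested higher and 1 lower. Postn (1042 against 745 CPM) and Dcn (498 against 258 CPM) carried that sum, and the collagen gene Col1a2 (27.99 against 11.76 CPM) passed as higher too. Pdgfra (0.446 against 0.413 CPM), Lum (1.38 against 1.20 CPM) and Col3a1 (3.04 CPM in the placode-enriched fraction) did not pass and Col1a1 (0.524 CPM there) was lower. The 7 immune markers summed to 35.6 to 55.4 CPM in placode-enriched and 4.41 to 11.3 CPM in IFE libraries, with 2 of 3 tested higher. Cd74 (39.0 against 3.84 CPM) made up most of the sum in the placode-enriched fraction. Aif1 (2.65 against 0.626 CPM) also passed as higher, and Cd68 (5.49 against 4.27 CPM) did not pass. Ptprc, Csf1r and Adgre1 averaged at most 0.136 CPM in either fraction, and Tyrobp was at 0 in every placode-enriched library. Periderm markers summed to 99.7 ± 7.81 CPM in the IFE and to 42.1 ± 6.67 CPM with placode enrichment (SD over 7 libraries each), with 4 of 5 tested lower and 1 higher. The higher one was Cldn6 (27.2 against 16.7 CPM), which made up most of the sum in the placode-enriched fraction. Schwann cell and neuron markers summed to 81.8 to 111 CPM in placode-enriched and 144 to 158 CPM in IFE libraries, with 3 of 5 tested lower. Merkel cell markers summed to 3.50 to 6.70 CPM in placode-enriched and 0.0335 to 0.556 CPM in IFE libraries, with the only tested marker, Sox2, higher. Endothelial markers, with Cdh5 and Emcn at 0 in every IFE library, stayed at or below 3.40 CPM in sum. The only tested marker of that list, Pecam1, was higher in the placode-enriched fraction (1.83 against 0.493 CPM). The members below were compared between the same libraries, and the part of these sums in the members' differences was not tested. In sorted bulk RNA, fewer cells of a type and less RNA per cell cannot be told apart.

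The most marked difference among the members was that of St8sia6, a sialyltransferase whose RNA was 14.3-fold lower in the placode-enriched fraction. St6gal1, St8sia2, Galnt6, Galnt14, Hs3st3a1 and Chst11 were among the genes that rose there, and Fut2 fell. After removal of genes with low counts, 62 members could be tested with edgeR's quasi-likelihood test, paired by title code and adjusted over 15382 genes. At an adjusted p under 0.05, 25 members were higher in the placode-enriched fraction (background 15.5% of all tested genes), 5 were lower (background 15.6%) and 32 did not pass. Differences of at least 2-fold were found in 14 higher members (background 5.71%) and 3 lower ones (background 4.9%). The libraries of both fractions did not overlap in 13 members with higher values (background 7.46%) and in 2 with lower values (background 7.29%), St8sia6 and Fut2. The median log2 fold change was 0.20 over the 62 members and -0.02 over all tested genes. All fold changes are log2 values, placode-enriched over IFE, with an approximate standard error (SE). Of the members that passed, St6gal1, St6galnac2, Galnt16, Hs3st3a1, B3gnt2 and B3gnt8 have exons overlapping a gene on the opposite strand, and since no strand setting is stated, reads of both cannot be told apart.

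**Figure D1:**
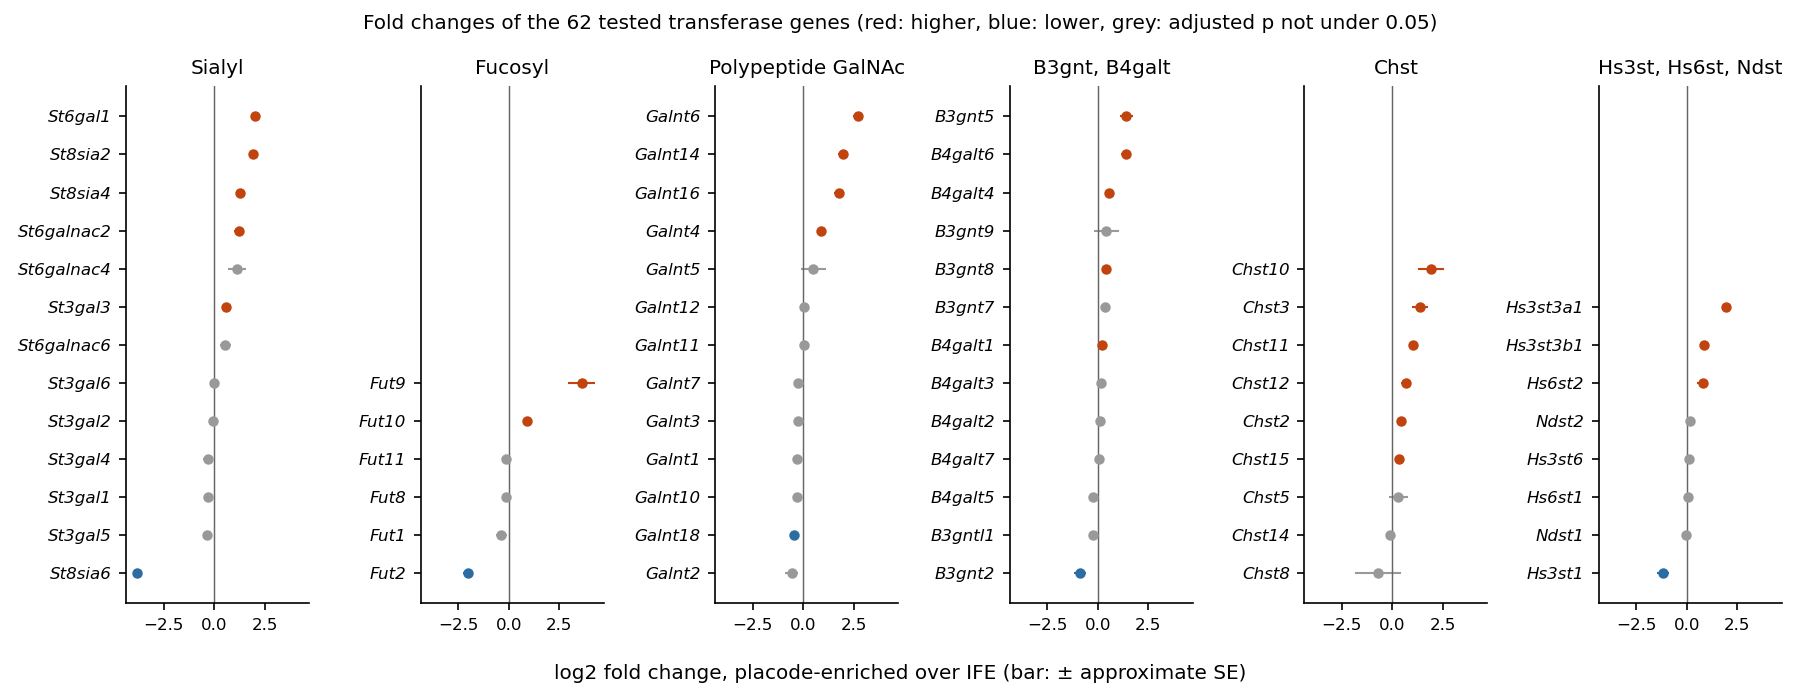
Log2 fold changes (placode-enriched over IFE, x axis) of the 62 tested members by family, with bars of ± 1 approximate SE; red points passed as higher, blue as lower, grey did not pass at an adjusted p of 0.05. St8sia6 stands at -3.84 and Fut2 at -2.01 on the left, while Galnt6 reaches 2.73 and Fut9 3.63 on the right.

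Levels of different genes in a family depend on transcript length, so CPM were divided by the kilobases of annotated exon and summed per family. The exons of all annotated transcripts of a gene were joined for this. That length can exceed the length of the transcripts present, so ranks and shares per kilobase are approximate. The 20 sialyltransferases summed to 35.7 ± 4.09 CPM per kilobase in placode-enriched and 33.5 ± 1.22 in IFE libraries (SD, n = 7 each). The summed level of the Chst genes was 56.1 ± 4.29 against 37.3 ± 2.55 CPM per kilobase, and it was higher in the placode-enriched library of all 7 pairs. The B3gnt and B4galt genes were also higher in 7 of 7 pairs, at 49.1 ± 4.24 against 42.9 ± 2.36 CPM per kilobase. Heparan sulfate genes summed to 71.5 ± 11.3 against 63.0 ± 7.74 CPM per kilobase and fucosyltransferases to 12.4 ± 0.593 against 12.2 ± 1.16, while GalNAc-transferases, at 52.9 ± 2.00 against 56.0 ± 2.168, were higher in the placode-enriched library of 1 pair. These sums are descriptions without a test. Inside the families the makeup shifted more than the sums of the sialyl-, fucosyl- and GalNAc-transferases did. St8sia6 made up 20.2% ± 3.40 of the sialyltransferase sum in the IFE, the largest mean share there, and 1.33% ± 0.265 in the placode-enriched fraction. St6gal1 took 18.4% ± 2.74 in the placode-enriched and 4.86% ± 1.06 in the IFE libraries. Fut10 held 41.8% ± 6.04 of the fucosyltransferase sum against 22.5% ± 0.887, and Fut2 4.70% ± 1.57 against 18.6% ± 3.54.

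**Figure D2:**
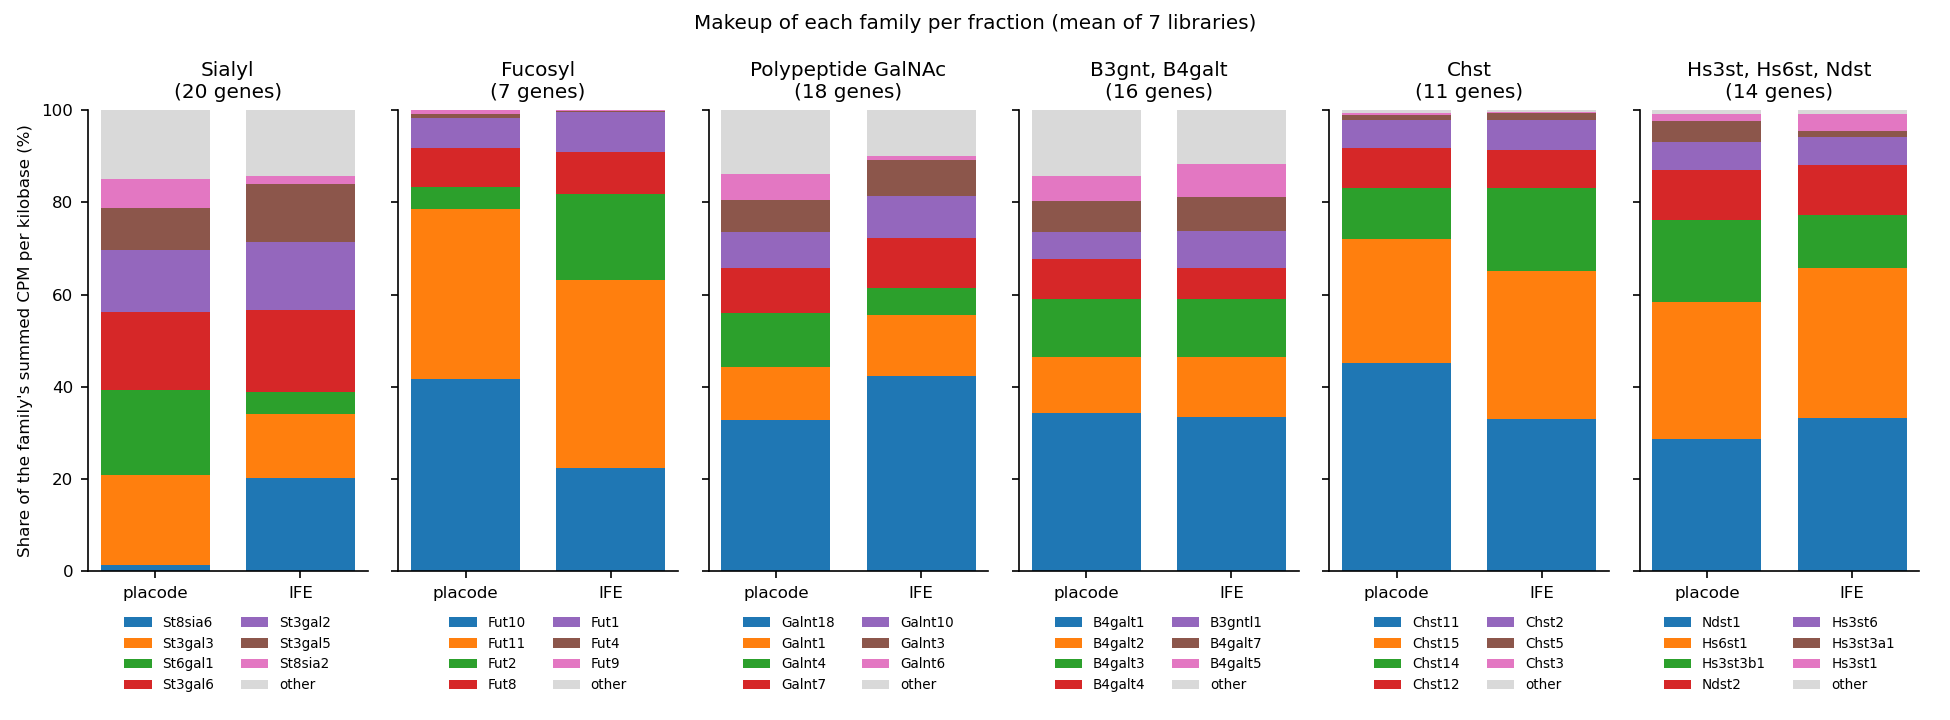
Share of each family's summed CPM per kilobase (y axis, percent; mean of 7 libraries) held by its leading members in the placode-enriched and IFE fractions. St8sia6 shrinks from 20.2% ± 3.40 in the IFE to 1.33% ± 0.265 of the sialyltransferase sum, and Chst11 covers 45.1% ± 3.23 of the Chst sum in the placode-enriched against 33.1% ± 2.04 in the IFE fraction (SD, n = 7).

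Among the 20 sialyltransferases, 13 were tested, of which 5 rose, 1 fell and 7 did not pass (median log2 fold change 0.57). The St8sia genes join sialic acid to sialic acid. St8sia6 (ENSMUSG00000003418, chr2:13651021-13794064, minus strand, GRCm38) makes short sialic acid chains, mainly on O-glycans. St8sia6 had 2.89 to 4.46 CPM (median 3.70) in placode-enriched and 40.0 to 67.3 CPM (median 50.5) in IFE libraries. Every IFE library lay above every placode-enriched library, with a log2 fold change of -3.84 ± 0.11 (SE; adjusted p from edgeR = 5.48e-11) and differences of -4.12 to -3.52 in single pairs. Per kilobase it went from rank 1 of the family in the IFE, at 6.76 CPM per kilobase, to rank 11 in the placode-enriched fraction, at 0.471. The suprabasal, periderm, melanoblast and Schwann cell and neuron marker sums given above were lower in the same fraction, and their part in this difference was not tested.

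St8sia2 and St8sia4 are the polysialyltransferases that build the long polysialic acid of NCAM, and both rose. St8sia2 had 8.37 to 17.2 CPM (median 8.80) in placode-enriched and 2.39 to 3.62 CPM (median 3.10) in IFE libraries (ENSMUSG00000025789, chr7:73939119-74013690, minus strand). The ranges were apart, with a log2 fold change of 1.93 ± 0.19 (adjusted p from edgeR = 3.84e-06). The placode-enriched libraries of St8sia2 fell into 2 sets: 16.1 to 17.2 CPM in the 3 pairs of the 27-7 title codes and 8.37 to 8.80 CPM in the other 4, while the IFE libraries showed no such split. St8sia4 had 4.98 to 12.6 CPM (median 8.77) in placode-enriched and 1.29 to 7.66 CPM (median 3.09) in IFE libraries; the fractions overlapped, but all 7 pairs were higher (log2 fold change 1.30 ± 0.18, adjusted p from edgeR = 0.00011). The ganglioside enzyme St8sia1, at 0.0744 and 0.0943 CPM on average, was too low to test, as were St8sia3 and St8sia5.

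The RefSeq upstream windows of St8sia6 and St8sia2, relatives that moved in opposite directions, are shown because they differ in CG content. St8sia4 also moved opposite to St8sia6. Capitals mark each CG. Both windows span the 250 bases before the RefSeq start, 5′ to 3′ on the minus strand of GRCm38.p6. They lie at chr2:13793521-13793770 with 30 CG (St8sia6) and chr7:74013683-74013932 with 15 CG (St8sia2). The St8sia6 window lies inside the gene span given above, while that of St8sia2 lies mostly outside its own.
St8sia6: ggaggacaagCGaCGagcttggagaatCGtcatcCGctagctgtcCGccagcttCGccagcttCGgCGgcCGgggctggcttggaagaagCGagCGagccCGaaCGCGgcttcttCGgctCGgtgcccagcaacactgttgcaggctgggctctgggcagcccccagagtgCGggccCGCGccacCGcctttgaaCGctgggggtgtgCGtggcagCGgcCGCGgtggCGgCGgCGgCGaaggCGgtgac
St8sia2: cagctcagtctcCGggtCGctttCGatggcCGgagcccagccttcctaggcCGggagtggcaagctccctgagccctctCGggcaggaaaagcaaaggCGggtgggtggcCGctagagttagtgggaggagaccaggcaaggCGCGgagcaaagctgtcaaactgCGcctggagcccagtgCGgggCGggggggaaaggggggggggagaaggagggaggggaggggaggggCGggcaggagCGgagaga
For scale, the median was 16 CG in the 79 windows found for 65 members and 6 in all 32851 RefSeq windows. The 3 windows of 3 lower members had a median of 30 (19 to 31), and the 27 windows of 20 higher members 18 (5 to 31). The 29 windows of 24 members that did not pass had a median of 16 (0 to 37), so the ranges overlapped. No chromatin or methylation was measured, so the windows are a description only.

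St6gal1 caps the lactosamine arms of N-glycans with sialic acid (ENSMUSG00000022885, chr16:23224740-23360350, plus strand). St6gal1 had 25.6 to 38.3 CPM (median 34.7) in placode-enriched and 5.78 to 11.3 CPM (median 8.13) in IFE libraries. No library overlapped, and the 4.04-fold higher level corresponds to a log2 fold change of 2.01 ± 0.13 (adjusted p from edgeR = 5.56e-08). Its rank per kilobase moved from 7 of 20 in the IFE to 2 in the placode-enriched fraction. Of the 6 St3gal genes, which cap galactose in another linkage, St3gal3 passed and 5 did not. St3gal3 had 15.0 to 28.9 CPM (median 18.1) in placode-enriched and 9.97 to 15.5 CPM (median 13.1) in IFE libraries, overlapping, with all 7 pairs higher (log2 fold change 0.58 ± 0.14, adjusted p from edgeR = 0.0069). On average it was the highest sialyltransferase per kilobase in the placode-enriched fraction, at 7.04 against 4.66 CPM per kilobase in the IFE. In the placode-enriched libraries its share of the family sum, 16.6% to 23.9%, overlapped that of St6gal1, 15.6% to 22.1%. St3gal6 had 31.7 to 43.0 CPM (median 35.9) in placode-enriched and 32.6 to 41.9 CPM (median 36.0) in IFE libraries, and its log2 fold change was 0.01 ± 0.08 (adjusted p from edgeR = 0.948). St3gal5, the GM3 ganglioside synthase, averaged 8.47 and 10.9 CPM and did not pass (adjusted p from edgeR = 0.0797). It passed as lower without pair 2 or pair 5 (log2 fold changes -0.46 and -0.44). Also not past the threshold were St3gal1, St3gal4, St3gal2, St6galnac6 and St6galnac4, with log2 fold changes of -0.30 (St3gal1) to 1.12 (St6galnac4). St3gal1 passed as lower with limma-voom (log2 fold change -0.32) and without the pair as a block (-0.32). St6galnac4 passed as higher with DESeq2 (adjusted p 0.0355) and without pair 5 (log2 fold change 1.39). St6galnac2, which puts sialic acid on the first GalNAc of O-glycans, rose: 4.72 to 10.1 CPM (median 7.71) in placode-enriched and 1.16 to 4.36 CPM (median 3.71) in IFE libraries, with a log2 fold change of 1.24 ± 0.23 (adjusted p from edgeR = 0.00102). Those ranges were apart, but the level is uncertain because 5.86% of the 50-base stretches of its transcripts also occur under a second identifier of the same name.

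**Figure D3:**
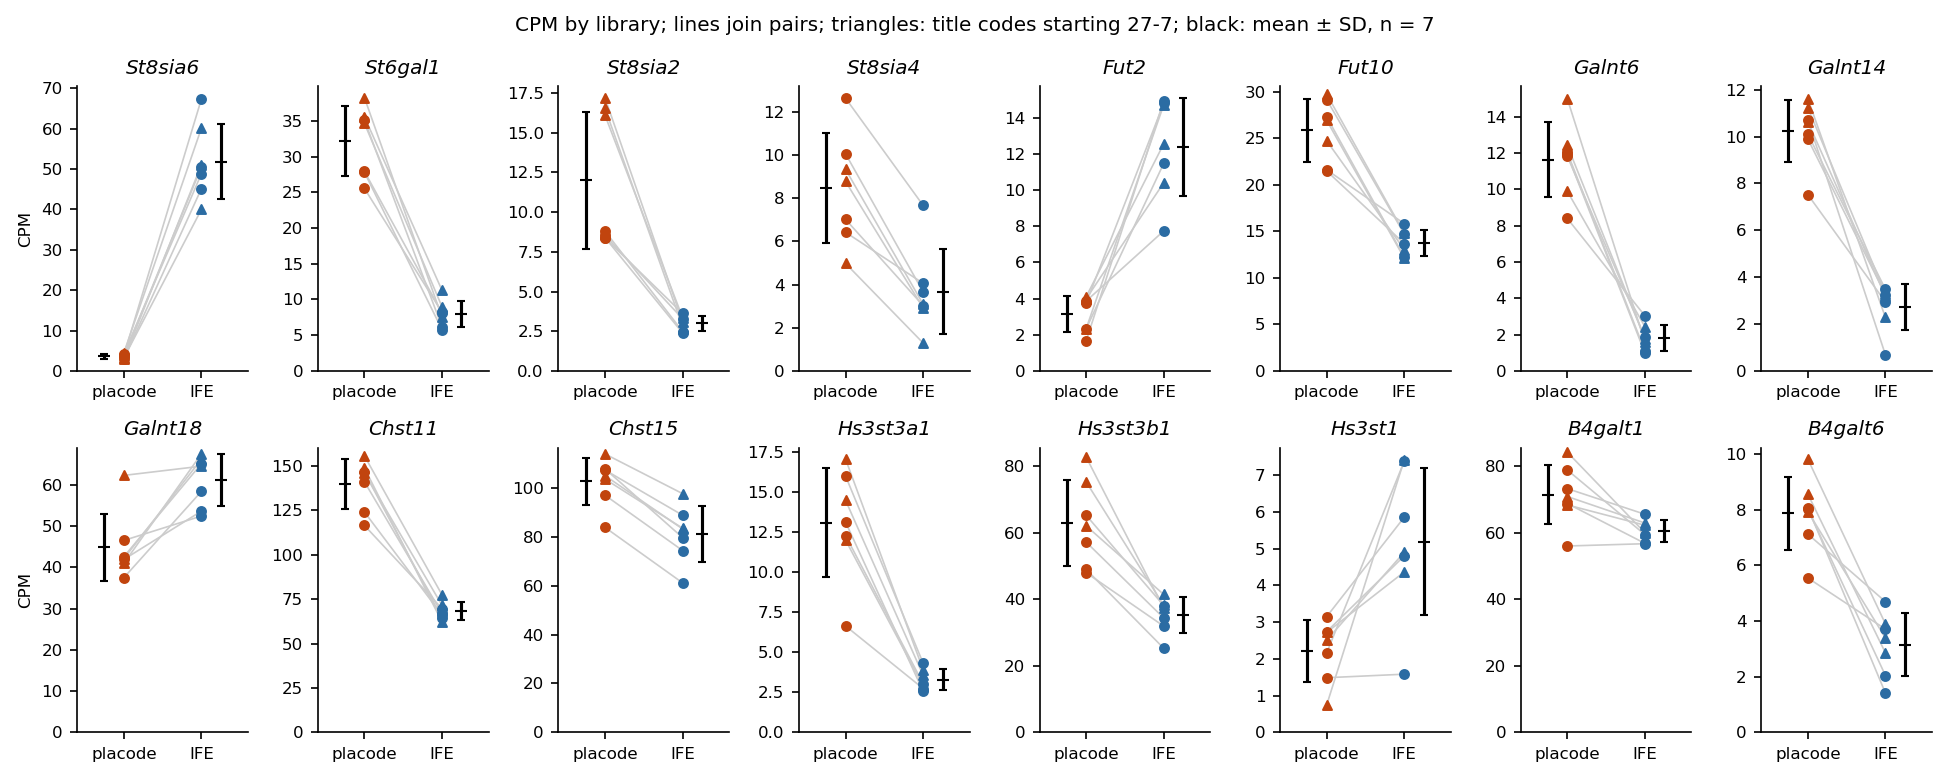
CPM (y axis) of 16 members in each library, placode-enriched in red and IFE in blue; grey lines join the libraries of a pair, triangles mark title codes starting with 27-7, and black bars give the mean ± SD (n = 7). St8sia6 and Fut2 drop in the placode-enriched fraction of every pair, and the 3 triangles of placode-enriched St8sia2 sit at 16.1 to 17.2 CPM, above the 4 circles at 8.37 to 8.80 CPM.

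Of 7 fucosyltransferases, 6 were tested: Fut9 and Fut10 rose, Fut2 fell and 3 did not pass (median log2 fold change -0.13). Fut2 makes the H antigen, the fucosylated end of secreted and mucosal glycans (ENSMUSG00000055978, chr7:45648591-45666394, minus strand). Fut2 had 1.66 to 4.10 CPM (median 3.75) in placode-enriched and 7.74 to 14.9 CPM (median 12.5) in IFE libraries. The ranges did not overlap, and the log2 fold change was -2.01 ± 0.24 (adjusted p from edgeR = 2.36e-05). Fut1, a relative that makes the same antigen and lies 27.5 kb away on chromosome 7, averaged 2.30 and 2.96 CPM and did not pass (log2 fold change -0.36 ± 0.27, adjusted p from edgeR = 0.361). Fut9 makes the Lewis X structure known from neural and stem cells. Fut9 had 0.433 to 2.36 CPM (median 1.24) in placode-enriched and 0 to 0.436 CPM (median 0.0571) in IFE libraries; the ranges overlapped, with 7 of 7 pairs higher and a log2 fold change of 3.63 ± 0.68 (adjusted p from edgeR = 0.000915). This is a low level: counts ran from 11 to 121 per placode-enriched library and from 0 to 13 per IFE library. Fut10 had 21.5 to 29.8 CPM (median 26.9) in placode-enriched and 12.1 to 15.8 CPM (median 13.7) in IFE libraries, apart from each other, with a log2 fold change of 0.91 ± 0.11 (adjusted p from edgeR = 2.03e-05). Fut11, the highest fucosyltransferase per kilobase in the IFE, had 15.3 to 24.9 CPM (median 17.9) and 18.9 to 28.9 CPM (median 20.1) (log2 fold change -0.13 ± 0.11, adjusted p from edgeR = 0.418). Fut8, which adds the core fucose of N-glycans, averaged 8.18 and 8.85 CPM and did not pass (adjusted p from edgeR = 0.496).

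The 18 polypeptide GalNAc-transferases gave 13 tested genes, of which 4 rose, 1 fell and 8 did not pass (median log2 fold change 0.04). Galnt6, which starts O-glycans on fibronectin among other proteins (ENSMUSG00000037280, chr15:100691813-100729376, minus strand), rose 6.62-fold. Galnt6 had 8.40 to 15.0 CPM (median 11.9) in placode-enriched and 0.999 to 3.04 CPM (median 1.78) in IFE libraries. No library overlapped, and the log2 fold change was 2.73 ± 0.25 (adjusted p from edgeR = 2.12e-06). Galnt14 and Galnt16, further initiating enzymes, were also apart. Galnt14 had 7.52 to 11.6 CPM (median 10.6) in placode-enriched and 0.685 to 3.48 CPM (median 3.19) in IFE libraries (log2 fold change 1.96 ± 0.26, adjusted p from edgeR = 5.34e-05). Galnt16 had 6.55 to 11.9 CPM (median 9.11) in placode-enriched and 1.48 to 3.95 CPM (median 2.41) in IFE libraries (log2 fold change 1.75 ± 0.21, adjusted p from edgeR = 2.38e-05). Galnt4, an enzyme that also glycosylates peptides already carrying GalNAc, rose from an IFE mean of 16.97 to 31.5 CPM, with no overlap of libraries (log2 fold change 0.88 ± 0.13, adjusted p from edgeR = 0.000211). Its transcripts share 7.38% of their 50-base stretches with Poc1b, which overlaps it, so the level is uncertain.

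Galnt18 was the highest GalNAc-transferase per kilobase in both fractions and, of the 13 tested, the one that passed as lower. Galnt18 had 37.5 to 62.2 CPM (median 42.1) in placode-enriched and 52.4 to 67.5 CPM (median 64.5) in IFE libraries; the fractions overlapped through 1 placode-enriched library at 62.2 CPM, and 7 of 7 pairs were lower (log2 fold change -0.46 ± 0.09, adjusted p from edgeR = 0.00217). Galnt1, a widely expressed initiating enzyme, had 23.8 to 43.8 CPM (median 31.3) against 33.2 to 47.2 CPM (median 40.8) and missed the threshold (log2 fold change -0.30 ± 0.11, adjusted p from edgeR = 0.0607). Galnt10 averaged 24.8 and 30.5 CPM and also missed it (adjusted p from edgeR = 0.0541). With DESeq2 both passed as lower, at adjusted p values of 0.0447 and 0.046; Galnt1 also passed without pair 3 (log2 fold change -0.40), and Galnt10 without pair 5 or 6 or in the other pairs alone (-0.39, -0.36 and -0.40). Similar small differences were those of Galnt7, 26.7 and 31.9 CPM, and Galnt3, 15.9 and 19.2 CPM. Galnt2, at 2.58 and 4.04 CPM, had a larger log2 fold change of -0.58 (adjusted p from edgeR = 0.218). None of these genes passed in edgeR with all pairs. Without pair 5, Galnt2 passed as lower (log2 fold change -0.89), as did Galnt7 without pair 3 (-0.34). Also not past the threshold were Galnt11, Galnt12 and Galnt5, with log2 fold changes of 0.04 (Galnt11) to 0.51 (Galnt5). Galnt2 shares 88.0% of its 50-base stretches with the overlapping model Gm20388, so most reads of it cannot be assigned and its level is uncertain.

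A window upstream of a RefSeq start inside the Galnt6 gene is shown because it holds a letter match to the Lef/Tcf motif, the sequence bound by the effectors of WNT signalling. Capitals mark AACAAAG, the reverse complement of CTTTGTT, whose first letter lies 11 bases before the start, in GRCm38.p6 at chr15:100720478-100720727, minus strand, 5′ to 3′.
Galnt6: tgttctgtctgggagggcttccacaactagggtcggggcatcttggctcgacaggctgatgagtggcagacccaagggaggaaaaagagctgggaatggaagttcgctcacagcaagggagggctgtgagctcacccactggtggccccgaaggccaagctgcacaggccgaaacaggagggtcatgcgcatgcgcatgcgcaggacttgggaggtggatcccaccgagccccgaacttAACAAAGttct
Of the 79 member windows, 4 held CTTTGTT and 1 held CTTTGAT on either strand, against 5.03% and 3.21% of all RefSeq windows. TATAAA was in 2 member windows (12.4% of all), while the NF-kB consensus motif (0.356% of all) and the Grhl motifs AACCGGTT (0.116%) and AACCNGTT (1.79%), of which the former is a case of the latter, were in none. A match is a match of letters and no evidence of binding. The members with CTTTGTT were Galnt6 and Chst3, which rose, and Galnt9 and St6gal2, which were too low to test; the CTTTGAT window was that of Fut8.

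The B4galt and B3gnt genes extend chains with galactose and N-acetylglucosamine, and 13 of 16 were tested: 5 rose, 1 fell and 7 did not pass (median log2 fold change 0.23). B4galt6, a synthase of lactosylceramide, the root of most glycolipids, changed the most among those of this group with the same direction in all pairs. B4galt6 had 5.55 to 9.82 CPM (median 8.02) in placode-enriched and 1.41 to 4.70 CPM (median 3.39) in IFE libraries, apart, with a log2 fold change of 1.38 ± 0.23 (adjusted p from edgeR = 0.000465). B4galt4 had 11.6 to 16.1 CPM (median 13.2) in placode-enriched and 7.28 to 12.97 CPM (median 8.89) in IFE libraries, overlapping, higher in 7 of 7 pairs (log2 fold change 0.57 ± 0.11, adjusted p from edgeR = 0.00164). B4galt1, the main lactosamine enzyme of N-glycans and the highest member of this family per kilobase in both fractions, had 56.0 to 84.2 CPM (median 70.8) against 56.7 to 65.5 CPM (median 60.0). That difference was small (log2 fold change 0.23 ± 0.08, adjusted p from edgeR = 0.0334) and did not pass without pair 1, 4, 5 or 6. B4galt2 had 23.8 to 38.2 CPM (median 30.1) in placode-enriched and 22.3 to 37.7 CPM (median 28.1) in IFE libraries and it did not pass (log2 fold change 0.11 ± 0.13, adjusted p from edgeR = 0.607); it shares 25.6% of its 50-base stretches with Ccdc24.

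B3gnt5, which starts the lacto-series of glycolipids, rose in 6 of 7 pairs from a mean of 3.17 to 8.62 CPM (log2 fold change 1.42 ± 0.32, adjusted p from edgeR = 0.00372). B3gnt8 and B3gnt2, which extend N-glycans with poly-lactosamine, passed in opposite directions. B3gnt8 had 7.15 to 11.1 CPM (median 8.59) against 5.14 to 7.41 CPM (median 6.63), overlapping (log2 fold change 0.42 ± 0.14, adjusted p from edgeR = 0.0356). B3gnt2 averaged 3.94 against 7.28 CPM and fell in 6 of 7 pairs (log2 fold change -0.88 ± 0.31, adjusted p from edgeR = 0.0466). Neither call is firm: the first missed the threshold without pair 1, 2, 4, 5, 6 or 7, and the second without pair 1, 2, 3, 4, 6 or 7. B3gnt2 also shares 58.2% of its 50-base stretches with the model Gm28048. B4galt7, which adds the first galactose of the linker of every chondroitin and heparan chain, averaged 9.61 and 9.19 CPM and did not pass (log2 fold change 0.07 ± 0.12). Also not past the threshold were B3gntl1, B4galt5, B4galt3, B3gnt7 and B3gnt9, with log2 fold changes of -0.25 (B3gntl1) to 0.42 (B3gnt9).

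Of 11 Chst genes, 9 were tested: 6 rose, none fell and 3 did not pass (median log2 fold change 0.43). Chst11, which sulfates the GalNAc units of chondroitin (ENSMUSG00000034612, chr10:82985498-83195900, plus strand), was the highest of the family per kilobase in both fractions. Chst11 had 116 to 156 CPM (median 146) in placode-enriched and 62.1 to 77.4 CPM (median 66.9) in IFE libraries. The ranges were far apart, and the log2 fold change was 1.03 ± 0.07 (adjusted p from edgeR = 2.1e-07). Chst15 had 83.8 to 114 CPM (median 105) in placode-enriched and 61.1 to 97.6 CPM (median 83.2) in IFE libraries; Chst15 adds a further sulfate to GalNAc units that already carry one. Its ranges overlapped, but 7 of 7 pairs were higher (log2 fold change 0.34 ± 0.06, adjusted p from edgeR = 0.000888). Chst2, which sulfates N-acetylglucosamine on keratan sulfate and on selectin ligands, had 19.9 to 27.3 CPM (median 24.2) against 15.7 to 19.3 CPM (median 18.2), apart (log2 fold change 0.43 ± 0.08, adjusted p from edgeR = 0.00149). Chst14, the dermatan sulfotransferase, averaged 12.795 and 13.9 CPM and did not pass (log2 fold change -0.12 ± 0.11, adjusted p from edgeR = 0.461). Also not past the threshold were Chst8 and Chst5, with log2 fold changes of -0.72 (Chst8) to 0.30 (Chst5).

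Chst3, Chst10 and Chst12 passed with 6 of 7 pairs higher. Chst12, a relative of Chst11 with the same acceptor, rose from 7.38 to 11.7 CPM (log2 fold change 0.65 ± 0.20, adjusted p from edgeR = 0.0244). Chst3, another chondroitin sulfotransferase, went from 0.537 to 1.56 CPM (log2 fold change 1.36 ± 0.40, adjusted p from edgeR = 0.018). Chst10 stood at 0.455 and 1.46 CPM (log2 fold change 1.91 ± 0.64, adjusted p from edgeR = 0.0357). All 3 calls depended on single pairs: Chst12 was lost without pair 2, 4, 5, 6 or 7, Chst3 without pair 1 or 5, and Chst10 without pair 1, 3, 5, 6 or 7. Chst3 and Chst10 rest on few reads, with at most 25 and 42 counts in any IFE library.

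The 14 genes of heparan sulfate modification gave 8 tested members, of which 3 rose, 1 fell and 4 did not pass (median log2 fold change 0.13). The differences lay in the Hs3st genes, which add the last and rarest sulfate of the chain, and in Hs6st2. Ndst1, which opens the chain to sulfation, had 126 to 204 CPM (median 172) against 128 to 193 CPM (median 178) (log2 fold change -0.04 ± 0.08, adjusted p from edgeR = 0.782). Hs6st1 had 83.5 to 162 CPM (median 117) against 89.5 to 127 CPM (median 120.0) (log2 fold change 0.04 ± 0.09, adjusted p from edgeR = 0.777). These 2 genes led the family per kilobase in both fractions, and their libraries overlapped. Also not past the threshold were Hs3st6 and Ndst2, with log2 fold changes of 0.11 (Hs3st6) to 0.15 (Ndst2). Hs6st2, on the X chromosome, averaged 3.38 against 1.95 CPM and passed narrowly (log2 fold change 0.78 ± 0.27, adjusted p from edgeR = 0.0456); this call was lost without pair 1, 2, 3, 4, 6 or 7.

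Hs3st3a1 and Hs3st3b1 make the same kind of heparan sulfate, lie 513 kb apart on chromosome 11 and both rose. Hs3st3a1 had 6.65 to 17.1 CPM (median 13.1) in placode-enriched and 2.57 to 4.33 CPM (median 3.05) in IFE libraries (ENSMUSG00000047759, chr11:64435332-64522841, plus strand). The ranges were apart, with a log2 fold change of 1.96 ± 0.15 (adjusted p from edgeR = 3.2e-07). Hs3st3b1 had 48.0 to 82.8 CPM (median 62.1) in placode-enriched and 25.3 to 41.5 CPM (median 37.3) in IFE libraries (ENSMUSG00000070407, chr11:63885792-63922290, minus strand), also apart (log2 fold change 0.82 ± 0.09, adjusted p from edgeR = 6.78e-06). Hs3st1, which makes the form of heparan sulfate that binds antithrombin, went the other way. Hs3st1 had 0.748 to 3.15 CPM (median 2.51) in placode-enriched and 1.58 to 7.41 CPM (median 4.90) in IFE libraries; the ranges overlapped and 7 of 7 pairs were lower, with log2 differences of -3.21 to -0.09 (log2 fold change -1.19 ± 0.32, adjusted p from edgeR = 0.0116). Within the 27-7 pairs the log2 fold change was -1.56 and within the others -0.92, and neither set passed alone.

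Part of the coding sequence of both Hs3st3 genes is shown because reads from it can hardly be told apart. The transcripts share 416 stretches of 50 bases, which is 10.7% of those of Hs3st3a1 and 8.56% of those of Hs3st3b1, in identical runs of 88, 401 and 74 bases. The windows of 101 bases below lie in the coding part of exon 2 of 2 (GENCODE M21, GRCm38), 5′ to 3′ along each transcript, at chr11:64520259-64520359 on the plus strand and chr11:63889584-63889684 on the minus strand. The capital is the base between the first and the next identical run, and all other bases are the same in both.
Hs3st3a1: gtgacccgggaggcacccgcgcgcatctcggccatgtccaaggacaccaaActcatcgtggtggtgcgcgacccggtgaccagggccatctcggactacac
Hs3st3b1: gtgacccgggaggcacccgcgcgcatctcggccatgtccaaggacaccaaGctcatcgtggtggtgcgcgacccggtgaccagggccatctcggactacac
How the authors' counting treated reads that fit both genes is not given in the sources used here, so both levels are uncertain.

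The 24 untested members had group means of at most 0.607 CPM. No counts were found in any placode-enriched library for B3gnt3, B3gnt6, Galnt9, St6galnac1, St6galnac5 and St8sia3, nor in any IFE library for Hs3st2 and Galntl6. Summed over 7 libraries, a count of 0 allows up to 0.0131 CPM in the placode-enriched and 0.0127 CPM in the IFE group (3 counts, counting error only). The highest means in this group were those of St6gal2, a relative of St6gal1 (0.607 and 0.0956 CPM), Fut4 (0.456 and 0.0890 CPM) and Hs6st3 (0.0195 and 0.432 CPM).

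The differences were then read pair by pair. Every one of the 30 members that passed kept its sign in all alternatives in which it could be tested, including the 27-7 pairs alone and the other pairs alone. Over the 14 alternatives with 6 or 7 pairs, 18 of the 25 higher and 4 of the 5 lower members were tested and called in every one; Fut9 kept its call where it was tested but did not enter the fit with the stricter filter. A test of whether the difference between fractions itself differed between the 27-7 pairs and the others called none of 62 members and none of all tested genes (background 0%; edgeR adjusted p under 0.05), with 2 members and 528 of all genes at an unadjusted p under 0.05. Those members were St8sia2, whose log2 difference was larger by 0.88 in the 27-7 pairs, and Galnt16, where it was smaller (-0.96). The adjusted p from edgeR was 0.902 for each of them. The labels do not say what the title code stands for.

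**Figure D4:**
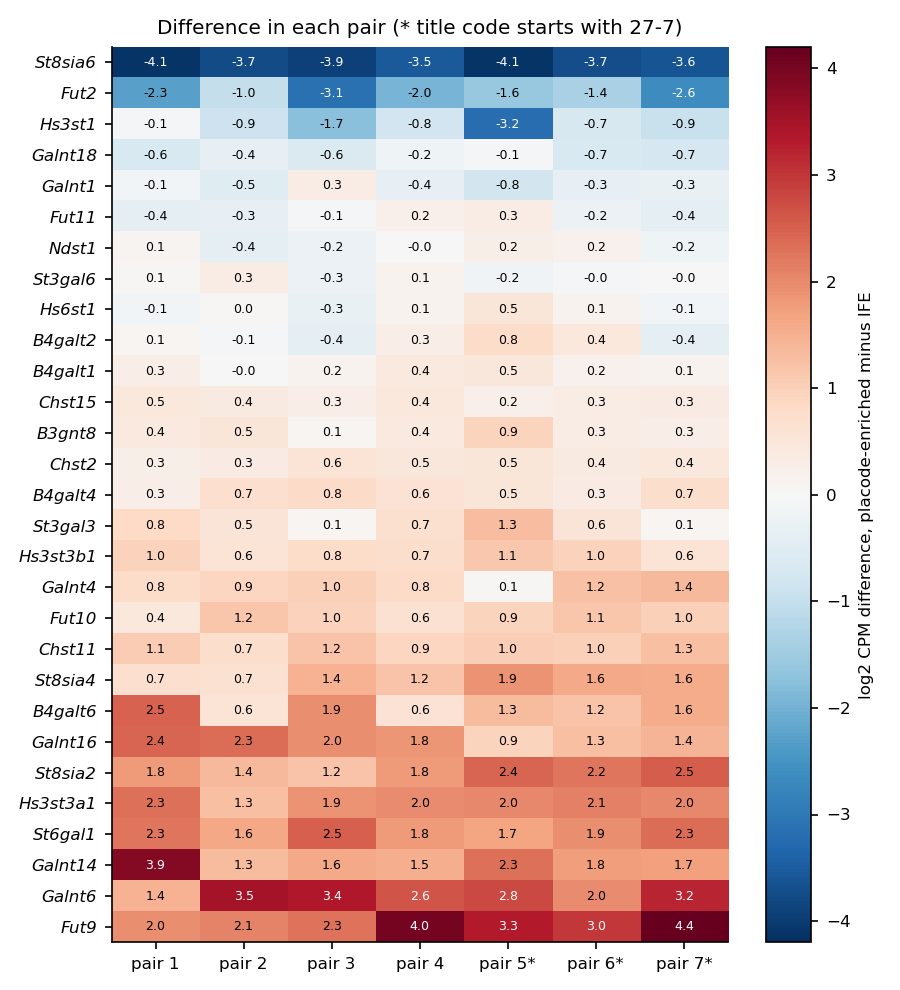
Log2 CPM difference, placode-enriched minus IFE, of each named member (rows) in each of the 7 pairs (columns; * title code starting with 27-7), blue for lower and red for higher. St8sia6 lies between -4.12 and -3.52 in every pair, while Ndst1, Hs6st1 and St3gal6 change sign between pairs.

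The enzymes that supply or remove the sugars, or build the chains on which the members act, were taken from 8 lists with 81 genes, of which 79 were in the table and 69 were tested. Of these, 10 rose, 15 fell and 44 did not pass (background 15.5% and 15.6%), with a median log2 fold change of -0.11 against -0.02 over all genes. In sialic acid supply and removal none of 8 rose and 4 fell. Neu3, a sialidase of gangliosides, had 0.827 to 2.93 CPM (median 1.96) against 6.97 to 9.73 CPM (median 8.42), apart (log2 fold change -2.15 ± 0.21, adjusted p from edgeR = 3.46e-06). Npl, which breaks free sialic acid down, fell from 5.51 to 1.81 CPM (adjusted p from edgeR = 3.57e-05), and Gne, the enzyme that starts sialic acid synthesis, averaged 12.5 against 20.2 CPM (log2 fold change -0.69 ± 0.11, adjusted p from edgeR = 0.000316). Cmas, which activates sialic acid for transfer, fell as well (log2 fold change -0.46 ± 0.12, adjusted p from edgeR = 0.00858). Among 10 fucose genes, the fucosidase Fuca2 (log2 fold change -1.03 ± 0.13) and the GDP-fucose transporter Slc35c1 (log2 fold change -0.61 ± 0.10) fell and none rose. Of 4 mucin core genes Gcnt1, which branches O-glycans, rose with no overlap, from 20.9 to 36.8 CPM (log2 fold change 0.82 ± 0.10, adjusted p from edgeR = 1.97e-05).

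In N-glycan trimming and branching 3 of 13 rose and 1 fell. Mgat3, which adds the bisecting N-acetylglucosamine, had 3.43 to 5.69 CPM (median 4.24) against 0.796 to 1.97 CPM (median 1.41) (log2 fold change 1.66 ± 0.25, adjusted p from edgeR = 0.00022), and the trimming mannosidase Man1a 44.2 to 64.8 CPM (median 50.2) against 18.3 to 26.4 CPM (median 20.4) (log2 fold change 1.25 ± 0.11, adjusted p from edgeR = 1.11e-06); both were apart. Mgat2, a branching enzyme, fell (log2 fold change -0.40 ± 0.10). In the glycosaminoglycan linker and heparan sulfate list 2 of 14 rose, Xylt2, which starts the chains (0.67 ± 0.11), and Extl3, which starts heparan sulfate (0.43 ± 0.07, log2), while 3 fell, Extl1, the sulfatase Sulf1 and the epimerase Glce (log2 fold changes -1.06, -0.55 and -0.35). In the chondroitin and dermatan list 3 of 9 rose and 2 fell. Csgalnact1, which starts chondroitin on the linker, had 9.01 to 21.02 CPM (median 11.3) against 0.704 to 2.05 CPM (median 1.74), apart (log2 fold change 3.07 ± 0.22, adjusted p from edgeR = 2.05e-07). The polymerase Chsy1 also rose without overlap, from 44.9 to 71.7 CPM (log2 fold change 0.67 ± 0.07), while its relative Chsy3 fell from 3.39 to 0.698 CPM (log2 fold change -2.52 ± 0.46, adjusted p from edgeR = 0.000875).

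Of 7 genes of sulfate donor supply, 1 fell and none rose: the sulfate carrier Slc26a2 had 92.9 to 129 CPM (median 112) against 188 to 240.2 CPM (median 215), apart (log2 fold change -0.91 ± 0.08, adjusted p from edgeR = 1.13e-06). This gene and the sulfotransferases Chst11 and Hs3st3b1 therefore passed in opposite directions. Of 4 glycosphingolipid core genes 1 rose and 2 fell: B4galnt1, the GM2 synthase (log2 fold change 0.65 ± 0.19), against B3galnt1 (-1.71 ± 0.18) of the globosides and Ugcg (-0.58 ± 0.14), which makes glucosylceramide.

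**Figure D5:**
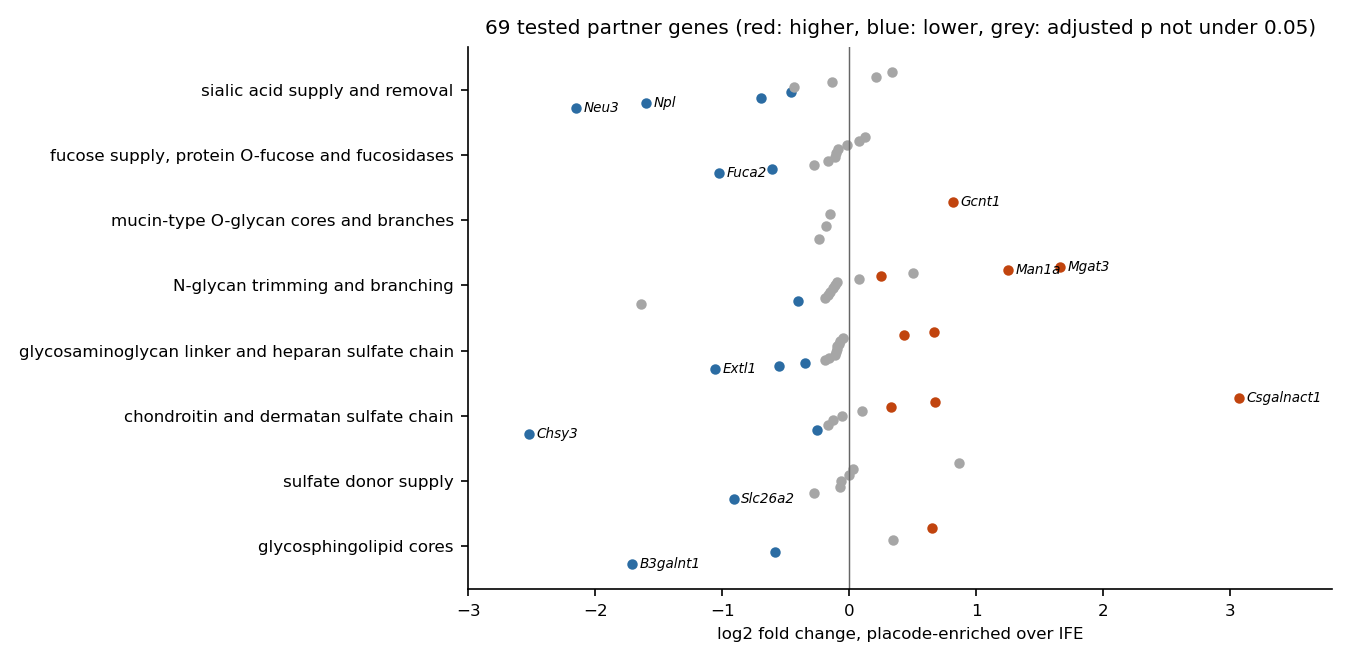
Log2 fold changes (placode-enriched over IFE, x axis) of 69 tested genes in 8 lists of sugar supply and chain synthesis (y axis); red points passed as higher, blue as lower, grey did not pass, and points far from 0 are named. Csgalnact1 stands at 3.07 and Chsy3 at -2.52 within the chondroitin list, and the sialic acid list has 4 blue points and no red one.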

How the data were processed

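Gene counts of 14 libraries, 7 per fraction, were used as deposited. The authors' table holds raw counts of reads per Ensembl gene, whole numbers that were not normalized. Per the submitters' processing notes, the builds are GRCm38 and mm10 and the tools bcl2fastq, Trimmomatic, STAR, HTSeq, FastQC and MultiQC. The sources used here give no strand setting, annotation release or treatment of duplicate reads; amplified reads are not independent molecules, and 19 members have exons that overlap a gene on the opposite strand. Symbols, coordinates and exon lengths came from GENCODE M21 (25949 of 26252 identifiers matched, and the 303 others held 0.436% of the counts), and upstream windows from RefSeq (GRCm38.p6). Totals of 23.8 to 49.5 mega counts per library set part of the precision. No column was left unused, and no pair of libraries of a fraction was close enough to be a duplicate (chi-square per degree of freedom 19.5 to 146).

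Counts were fitted in R 4.3.3 with edgeR 4.0.16 and limma 3.58.1 (tables and figures in Python 3.11.15 with numpy 2.4.6, matplotlib 3.10.9 and pandas 2.3.3): filterByExpr (15382 genes kept, 10870 removed), TMM scaling, robust quasi-likelihood F tests with the pair as a block, and Benjamini-Hochberg adjustment over all genes tested, with a threshold of 0.05. Biological variation was 0.216 as a common coefficient. The SE is approximate: the unshrunk coefficient over the root of F. CPM use TMM-scaled totals, and differences per pair use a prior count of 2. The pairs come from the design text and the title codes; deviations from the fraction means correlated by -0.132 to 0.195 within pairs. Whether pairs share litters is not stated, so the p-values cover only the spread among these pools. An interaction term compared the 3 pairs with codes starting 27-7 with the 4 others.

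The members, the partner lists and the marker lists were chosen with earlier results of these data known. Named members are, per family, up to 4 past the threshold with the largest change, the same sign in 7 pairs and at least 1 CPM, and the 2 highest per kilobase; other members are named where a count or a relative calls for it, chosen after their values were seen. Proteins were not used here. The fit was tested on simulated data. Alternatives were no block, DESeq2 size factors, upper-quartile scaling, no filter, a filter of 1 CPM in 7 libraries, the 27-7 or the other pairs alone, leaving out each pair, DESeq2 1.42.0 and limma-voom.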

Additional observations from a re-analysis of the deposited data

Results flagged for a closer look

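In 58 groups of 7 libraries, made of the 29 named members in each fraction, 4 held a library far from the nearest other one by Dixon's criterion; chance alone flags about 1 in 20 groups. Fut11 stood at 28.9 CPM in the IFE library of pair 1, with the nearest IFE library at 20.5 CPM. Galnt14 was at 7.52 CPM in the placode-enriched library of pair 2 (nearest 9.89 CPM) and at 0.685 CPM in the IFE library of pair 1 (nearest 2.28 CPM). Galnt18 reached 62.2 CPM in the placode-enriched library of pair 5, with the nearest at 46.5 CPM. The calls of Galnt14 and Galnt18, and the absence of a call for Fut11, were the same without the pairs named.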

How the results depend on the processing

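The count of members higher in the placode-enriched fraction, 25 with all pairs, was 14 with the 27-7 pairs alone, 19 with the other pairs alone and 20 to 23 without 1 pair; the count of lower members, 5, was 3 with the 27-7 pairs alone and 4 to 8 without 1 pair, the 8 coming without pair 5. The partner genes had 10 higher and 15 lower; the lower count was 9 with the other pairs alone and 13 to 21 without 1 pair, the higher count 8 to 10 without 1 pair. Fits to 1 set use 3 or 4 pairs, so fewer samples enter. Without the replicate block, 25 members were higher and 6 lower, against 10 and 16 partner genes, and 30 of 30 called members kept their call. Members that did not pass changed sign, all as log2 fold changes: B4galt2 was -0.0072 to 0.21 without 1 pair (lowest without pair 5) and -0.016 in the other pairs alone, Hs6st1 -0.038 (without pair 5) to 0.10 and -0.060 in the other pairs, Ndst1 -0.087 to 0.028 (without pair 2) and 0.092 in the 27-7 pairs, and St3gal6 -0.032 (without pair 2) to 0.055, with -0.0034 without pair 4 and -0.062 in the 27-7 pairs. B4galt5, B3gnt9, Fut1, Galnt11, Galnt12, Galnt5 and St3gal2 also changed sign in at least 1 fit without passing, for example Galnt5 from 0.51 to -0.62 and Fut1 from -0.36 to 0.12 in the 27-7 pairs alone. The cause was not tested. No scaling moved the median of all genes by over 0.1. Depth is low for Fut9, Chst3, Chst10, Chst8, Galnt5 and St6galnac4, which had at most 44 counts in any IFE library.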

Other observations

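Some members that were tested lie on the same chromosome, and their log2 fold changes are given side by side, without a test of the difference between them. Most are not adjacent: 1 (Hs3st3a1 and Hs3st3b1) to 17 (St3gal2 and Chst5) other protein-coding genes lie between them, and none between St6galnac4 and St6galnac6. St6galnac4 and St6galnac6, 10 bases apart on chromosome 2, had 1.12 and 0.57, and neither passed. Fut11 and Ndst2, 22.7 kb apart on chromosome 14, had -0.13 and 0.15, and neither passed. Fut1 and Fut2, 27.5 kb apart on chromosome 7, had -0.36 and -2.01, and Fut2 passed. B4galt2 and St3gal3, 48.7 kb apart on chromosome 4, had 0.11 and 0.58, and St3gal3 passed. Hs3st3a1 and Hs3st3b1, 513 kb apart on chromosome 11, had 1.96 and 0.82, and both passed. St3gal2 and Chst5, 917 kb apart on chromosome 8, had -0.054 and 0.30, and neither passed.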
